A study of Caenorhabditis elegans with 18 samples.

Results

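The genes described here copy the genome and divide it between daughter cells. They were chosen by symbol: probe sets annotated mcm-, orc-, rfc-, rpa-, psf-, pri-, rnr-, cyb-, smc-, knl-, hcp-, bub- or air-, or with one of 17 single names such as pcn-1, cdc-6, cdk-1, top-2 and plk-1. The rule found 88 of the array's 22625 probe sets, and 87 of them carried 1 symbol, which gave 64 genes of 17118 with a probe set of their own. The remaining probe set carried several symbols, him-10 among them, and was the only one under the filter on dim signals. Each gene is represented by its brightest probe set, and 44 genes had no other. All 64 genes were above the filter, which lay at a geometric mean signal of 47. The symbol mcm-3AP met the rule by its prefix only, and it is kept apart from the helicase subunits.

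A cell prepares to copy its DNA by licensing. The origin recognition complex with CDC-6 and CDT-1 loads the ring-shaped MCM helicase onto chromatin, and kinases, the GINS complex and MCM-10 then turn it into an active fork. At the fork, primase and DNA polymerase alpha start each strand, replication factor C loads the sliding clamp PCN-1 (PCNA), replication protein A covers single-stranded DNA and ribonucleotide reductase supplies deoxynucleotides. Later, condensin and cohesin shape the chromosomes, the kinetochore ties them to the spindle, the checkpoint delays anaphase until all are attached, and Aurora kinases with the central spindle complete division. In adult Caenorhabditis elegans the somatic cells no longer divide, so these proteins are known mainly from the germline and from embryos inside the mother.

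RNA was taken from whole wild-type worms (N2), grown on NGM plates with OP50 bacteria at 20 °C, and each sample was hybridised to 1 Affymetrix array. Control worms (n = 5) developed and aged normally, and the H2O2 group (n = 5) had 2 h in 0.3 mM hydrogen peroxide at the L4 larval stage. The TRF group (n = 4) received a tocotrienol-rich fraction, a mixture of vitamin E compounds, throughout life. The TRF+H2O2+TRF group (n = 4) received it before and after hydrogen peroxide, from hatching until day 3 of adulthood, with the peroxide dose not given again. The labels do not give the age of every group at collection, or say whether replicates came from separate cultures, so p-values measure the spread between these samples only. Values are MAS5 signals, a linear brightness that the submitters had scaled to a trimmed mean of about 500.1 on every array. In whole worms, fewer dividing cells and less RNA per cell cannot be told apart.

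Markers of the germline, of embryos and of other tissues were read on the same arrays. All 17 germline markers and all 16 oocyte and eggshell markers on the lists used here were above the filter, as were 24 of 30 sperm markers, 7 of 10 embryo markers and 8 of 8 body wall muscle markers. The summed germline signal ran from 24680 to 31604 in control, 26084 to 32146 in H2O2, 27103 to 29337 in TRF and 23566 to 30271 in TRF+H2O2+TRF arrays. These ranges overlapped.

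No replication or segregation gene differed between groups after adjustment over all 13529 probe sets tested. This held for 4 comparisons of 2 groups, for the F test among the 4 groups and for the interaction of TRF with H2O2 (limma with Benjamini-Hochberg adjustment, two-sided for single contrasts, adjusted p under 0.05). The background was 0% in each of them except TRF against control, where 1 probe set of another gene passed, which is 0.00739%. In the further text a log2 fold change is on the log2(signal + 1) scale, the first group named minus the second, with limma's standard error. A value of 1 is a doubling, and intervals are 95% confidence intervals.

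**Figure D1:**
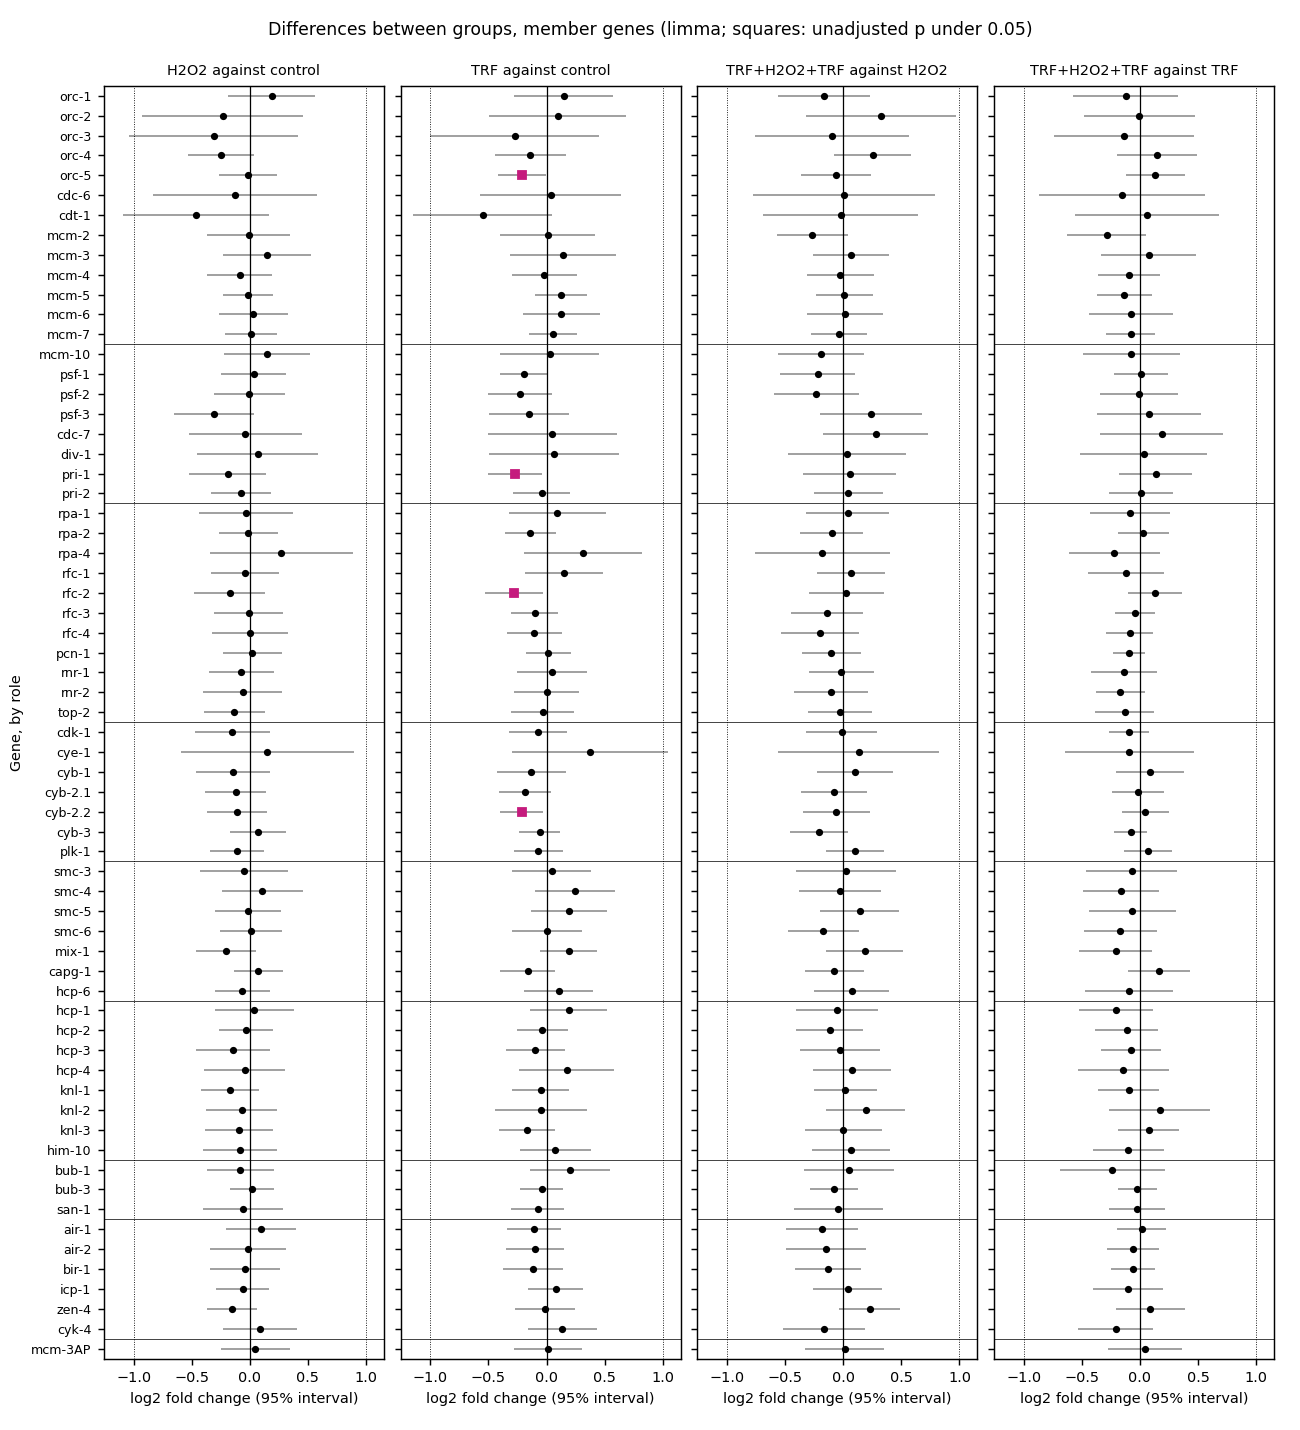
Log2 fold changes of the 64 genes in 4 comparisons (x axis, points with 95% intervals from limma), ordered by role down the y axis; squares mark unadjusted p under 0.05 and dotted lines a 2-fold difference. Most intervals cross 0, and the 4 squares, pri-1, cyb-2.2, rfc-2 and orc-5, stand in TRF against control, all left of 0.

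Hydrogen peroxide at L4 was compared with no treatment to ask how the oxidant alters expression. For these genes the differences were small: the median log2 fold change was -0.04, with 20 genes higher and 44 lower, beside a median of -0.00190 and 50.5% lower over all probe sets. On the brightest probe sets, none of the 64 reached an unadjusted p under 0.05, against 2.34% of all probe sets. No gene's groups were free of overlap on them, against 0.473%. The 95% intervals of 62 genes lay within a 2-fold difference and those of 57 within 1.5-fold. The exceptions to the first count sat among the licensing genes.

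Among the 13 origin recognition and licensing genes, 9 were lower and 4 higher. The MCM subunits, which form the ring of the helicase, were nearly level, from -0.09 for mcm-4 to 0.15 for mcm-3. The largest difference of any gene was that of cdt-1, a helicase loader, with signals of 127, 154, 207, 177 and 308 in control and 155, 113, 166, 76.7 and 196 in H2O2 arrays. The lowest value of cdt-1 stood in H2O2 and the highest in control, and 3 of the 5 H2O2 values lay within the control range. Its log2 fold change was -0.47 ± 0.29, with a 95% interval from -1.1 to 0.16 (adjusted p = 1.00, limma). The origin recognition subunit orc-4 had 1022, 827, 1045, 951 and 1070.2 in control and 701, 836, 959, 748 and 900.4 in H2O2 arrays. The 2 lowest values of orc-4 were H2O2 arrays and the groups overlapped, with a log2 fold change of -0.25 ± 0.13 (95% interval -0.53 to 0.03).

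Of the origin firing and priming genes, psf-3 had the smallest p of all members. PSF-3 is a subunit of GINS, which binds the helicase at firing. Its signals were 717, 675, 677, 741 and 843 in control and 415, 704, 538, 661 and 672 in H2O2 arrays. Of the 5 H2O2 values of psf-3, 4 were below every control value. The exception was replicate 2, and the log2 fold change was -0.31 ± 0.16 (95% interval -0.66 to 0.04). The other GINS members on the array differed by less, with psf-1 at 0.03 and psf-2 at -0.00327. The 11 fork and nucleotide genes ran from -0.17 for the clamp loader subunit rfc-2 to 0.27 for rpa-4, the highest value of all 64 genes. Between them stood rfc-4 at 0.00324, the clamp pcn-1 at 0.02, rpa-1 at -0.03, the ribonucleotide reductase subunits rnr-1 and rnr-2 at -0.07 and -0.06, and the topoisomerase top-2 at -0.14.

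In segregation genes, 7 of 8 kinetochore genes were lower, from -0.17 for knl-1, the outer kinetochore scaffold, to 0.04 for hcp-1. The condensin subunit mix-1 had signals of 1131, 1106, 1091, 1127 and 1272 in control and 1188, 864, 1015, 1011 and 918 in H2O2 arrays. Of the 5 H2O2 values of mix-1, 4 lay under the whole control group and 1 lay inside it, with a log2 fold change of -0.20 ± 0.12 (95% interval -0.46 to 0.05). The kinesin of the central spindle, zen-4, came next at -0.15 ± 0.10 (95% interval -0.37 to 0.06). The checkpoint and Aurora genes showed no common direction, with air-1 at 0.09, air-2 at -0.01, bir-1 at -0.04, bub-1 at -0.08 and san-1 at -0.06.

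Arrays with equal replicate numbers deviated together in control and H2O2, so the comparison was also read within pairs. With the number as a block, 4 of 64 genes reached an unadjusted p under 0.05, all lower: psf-3, orc-4, cdt-1 and knl-1. In the same blocked fit 9.51% of all probe sets did so and 3.81% with lower signals, and the smallest adjusted p of a member was 0.482. The pairs did not move one way. In pairs 2 and 3 a majority of the members, 37 and 38 of 64, were higher in H2O2, and in pairs 1, 4 and 5 only 26, 21 and 9 were. Without the pair numbered 5 the median log2 fold change was -0.00780.

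Body wall muscle transcripts stood apart from the division genes in this comparison. All 8 markers had higher signals in H2O2, with a median log2 fold change of 0.47. Of them 6 had an unadjusted p under 0.05, where 2.34% of all probe sets did, and 0 passed adjustment. Other lists also leaned higher: hypodermis with 4 higher and 1 lower (median 0.30), intestine with 7 and 1 (median 0.12) and sperm with 17 and 7 (median 0.08). The embryo list had 3 higher and 4 lower (median -0.08). The germline list gave 12 higher and 5 lower (median 0.05) and the oocyte list 15 higher and 1 lower (median 0.12), with 0 passing. The part of tissue makeup in the values of the division genes was not tested.

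Lifelong TRF was compared with no treatment to ask what the supplement does in unstressed worms. The median log2 fold change of the members was -0.02, with 31 higher and 33 lower, beside 0.04 and 42.4% lower over all probe sets. In all, 4 of the 64 reached an unadjusted p under 0.05, all with lower signals, against 3.5% of all probe sets in either direction and 1.38% with lower signals. None came near the adjusted threshold (adjusted p = 0.995 for each). Intervals of 61 genes stayed within a 2-fold difference and 54 within 1.5-fold.

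The 4 genes act at different steps. The primase subunit pri-1, which makes the RNA primers of new strands, had 1620.1, 1834, 1582, 1511 and 1691 in control and 1262, 1297, 1488 and 1402 in TRF arrays. Every TRF value of pri-1 lay below every control value, and the log2 fold change was -0.27 ± 0.11 (95% interval -0.51 to -0.04). The clamp loader subunit rfc-2 had 2101, 2102, 2649, 2009 and 2403 in control and 1771, 1698, 1974 and 1949 in TRF arrays. Its groups did not overlap either, at -0.28 ± 0.11 (95% interval -0.53 to -0.03). The origin recognition subunit orc-5 had 2188, 2303, 2423, 2070.1 and 2100.5 in control and 1820, 1912, 1906 and 2007 in TRF arrays. The groups of orc-5 were again separate, by a narrow margin, at -0.21 ± 0.10 (95% interval -0.42 to -0.00447). On a second probe set the groups of rfc-2 and of orc-5 overlapped, at -0.74 ± 0.40 and -0.10 ± 0.13. Neither had an unadjusted p under 0.05 there (limma), and pri-1 had no other probe set.

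A B-type cyclin was the fourth. The signals of cyb-2.2 were 6283, 6797, 7010, 6506 and 6961 in control and 5292, 5620, 6462 and 5785 in TRF arrays, and TRF replicate 3 lay above the lowest control. Its log2 fold change was -0.22 ± 0.08 (95% interval -0.40 to -0.03). A second probe set of cyb-2.2 gave -0.16 ± 0.12, without an unadjusted p under 0.05 (limma). The near-identical cyb-2.1 may share its probes' signal and had -0.18, so the 2 genes cannot be told apart with certainty. The GINS subunit psf-1 followed at -0.20 ± 0.09 (95% interval -0.40 to 0.00654), and psf-2 had -0.23.

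On the brightest probe sets, the groups of 3 members did not overlap, each lower in TRF, against 1.18% of all probe sets and 0.643% with lower signals. The 4 members with an unadjusted p under 0.05 depended on single arrays and on the fit. Without TRF replicate 1 or TRF replicate 2 no member had one, against 1.75% and 3.23% of all probe sets in those fits. Without control replicate 2 or 3 the count was 2 (2.41% and 3.36%), and without TRF replicate 4 it was 3 (4.04%). It was 4 without control replicate 4 (3.21%), 5 without control replicate 1 or TRF replicate 3 (5.15% and 4.46%) and 6 without control replicate 5 (4.40%). With all arrays but no variance trend in the limma fit, the count was 1 (3.73%).

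**Figure D2:**
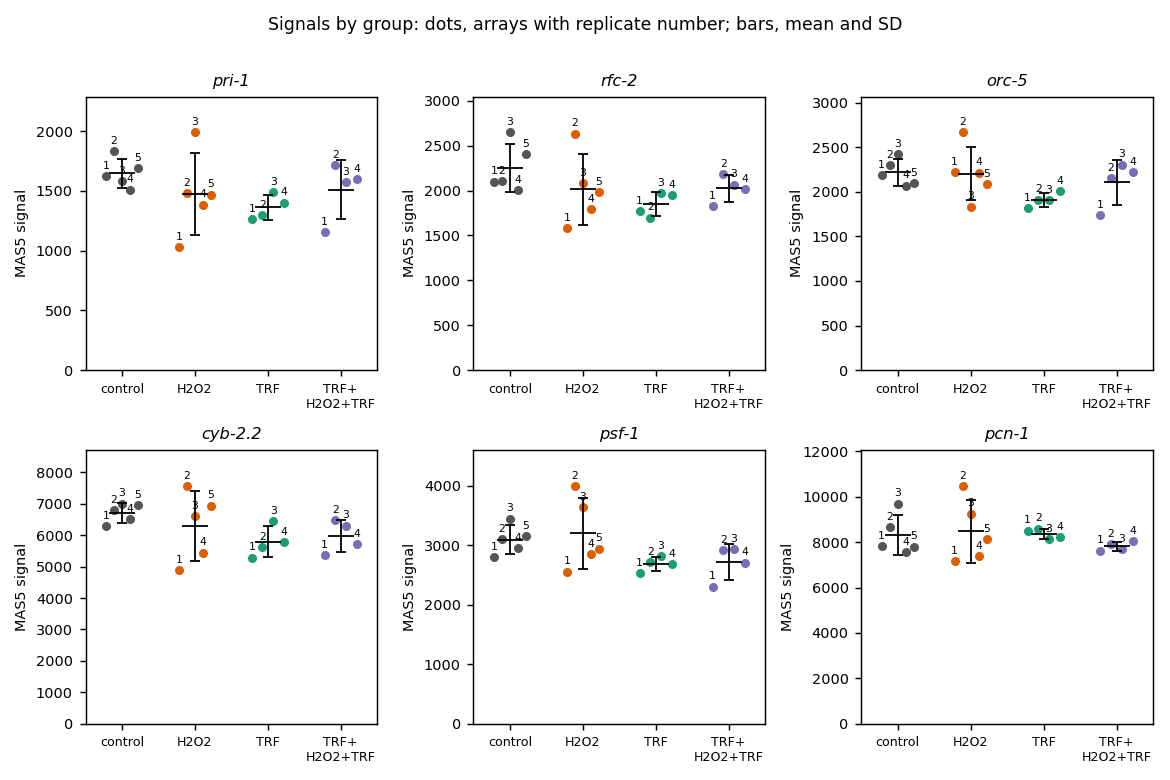
MAS5 signals (y axis, from 0) of pri-1, rfc-2, orc-5, cyb-2.2, psf-1 and pcn-1 in the 4 groups; dots are arrays with their replicate numbers, and bars the mean and SD. TRF values of pri-1, rfc-2 and orc-5 lie under all control values, while H2O2 values spread across both.

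Counts by role under TRF were small and were not tested against each other. Of the 7 condensin and SMC genes 6 were higher, among them smc-4 at 0.24, smc-5 at 0.19 and mix-1 at 0.19, and capg-1 was lower at -0.16. Of the 7 kinases and cyclins 6 were lower, and cye-1, the cyclin of S-phase entry, was higher at 0.37 ± 0.31. The helicase subunits ran from -0.02 for mcm-4 to 0.14 for mcm-3. The value of cdt-1, -0.55, was the largest in size, on signals of 144, 91.9, 174 and 112 in TRF arrays, and its groups overlapped. The clamp pcn-1 differed by 0.01, and the ribonucleotide reductase subunit rnr-2 by 0.00177.

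In the H2O2 group these 3 genes spread more widely. In H2O2 arrays pri-1 ran from 1032 to 1990, orc-5 from 1834 to 2668 and rfc-2 from 1582 to 2636, wider than the control and TRF ranges. In TRF+H2O2+TRF arrays replicate 1 held the lowest value of each, 1154 for pri-1, 1828 for rfc-2 and 1743 for orc-5, and the others reached into the control range.

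TRF given around peroxide was compared with peroxide alone to ask whether the supplement alters the peroxide profile. The median log2 fold change of the members was -0.02 (30 higher, 34 lower) beside 0.02 and 45.3% lower over all probe sets. On the brightest probe sets, no member had an unadjusted p under 0.05, against 2.23% of all probe sets. No member's groups were free of overlap on them, against 0.961%. The intervals of all 64 genes lay within a 2-fold difference and those of 54 within 1.5-fold. Most tissue marker lists leaned lower here. Signals were lower in 14 of 17 germline, 15 of 16 oocyte and 22 of 24 sperm markers (medians -0.13, -0.14 and -0.21). The counts were 6 of 8 for body wall muscle and for intestine, 4 of 5 for hypodermis and 3 of 7 for embryo. No marker passed adjustment, and their part in the values of the division genes was not tested.

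The helicase subunit mcm-2 had the smallest p. Its signals were 1194, 1261, 1445, 1202 and 1611 in H2O2 and 1138, 1105, 1221 and 986 in TRF+H2O2+TRF arrays. Of the 4 TRF+H2O2+TRF values of mcm-2, 3 lay below all H2O2 values, and the log2 fold change was -0.27 ± 0.14 (95% interval -0.57 to 0.04). The other 5 helicase subunits were within 0.07 of 0, from -0.04 for mcm-7 to 0.07 for mcm-3. The central spindle kinesin zen-4 was at 0.23 ± 0.12, the mitotic cyclin cyb-3 at -0.21 ± 0.11, orc-4 at 0.25 ± 0.15 and psf-1 at -0.22 ± 0.15, and the 95% interval of each included 0.

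Peroxide within TRF-fed worms, the comparison of TRF+H2O2+TRF with TRF, was added to the study's own. The labels do not say that the TRF schedules of these groups match in length. Peroxide and TRF schedule therefore cannot be told apart in this comparison. Here 21 members were higher and 43 lower, with a median log2 fold change of -0.08 beside -0.01 and 53.5% lower over all probe sets. Of the tissue markers, 8 of 8 for body wall muscle (median 0.32) and 7 of 8 for intestine (median 0.08) had higher signals and 13 of 17 for germline (median -0.12) had lower ones, with 0 passing adjustment, and their part in the result was not tested. No member had an unadjusted p under 0.05, against 1.46% of all probe sets. The groups of 1 member did not overlap, against 1.09% of all probe sets and 0.562% with lower signals. This was pcn-1, the sliding clamp, with 8509, 8599, 8123 and 8210.0 in TRF and 7634, 7906, 7708 and 8056 in TRF+H2O2+TRF arrays. The 2 ranges are narrow and lie close together, the log2 fold change was -0.10 ± 0.06 (95% interval -0.23 to 0.04), and control arrays of pcn-1 covered both, from 7565 to 9701.

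Of 11 fork and nucleotide genes 9 were lower, among them rnr-2 at -0.17 ± 0.10 (95% interval -0.38 to 0.04). Of 7 condensin and SMC genes 6 were lower, with mix-1 at -0.21 ± 0.14, and 6 of 8 origin firing and priming genes were higher. The central spindle gene cyk-4, whose protein is a partner of ZEN-4, was at -0.21 ± 0.15. The smallest p was again that of mcm-2, at -0.29 ± 0.16 (95% interval -0.63 to 0.06). Its TRF signals were 1696, 1496, 1093 and 1211, and replicates 3 and 4 lay inside the TRF+H2O2+TRF range. The comparisons share arrays, so the repeat of mcm-2 is not independent. Equal numbers deviated together in these groups too. With the number as a block, bub-1, cyk-4, mix-1 and mcm-2 had an unadjusted p under 0.05, all lower, against 6.46% of all probe sets in that fit and 3.18% with lower signals, and the smallest adjusted p of a member was 0.718. In every pair more members were lower than higher, with 14, 31, 25 and 18 of 64 higher in pairs 1 to 4.

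Regulators of mitosis showed the same overlap of groups in every comparison. The mitotic kinase cdk-1 had 5072, 5524, 6974, 4552 and 5424 in control, 3713, 6257, 5667, 4697 and 4628 in H2O2, 4928, 5178, 5215 and 5451 in TRF and 4687, 4640.0, 5191 and 4950 in TRF+H2O2+TRF arrays. Its highest value was in control replicate 3 and its lowest in H2O2 replicate 1, and its 4 log2 fold changes ran from -0.15 to -0.01. The centromeric histone gene hcp-3, the worm CENP-A, had 2310, 3157, 2866, 2392 and 2823 in control, 1821, 2878, 3014, 2196 and 2445 in H2O2, 2304, 2369, 2695 and 2725 in TRF and 2030, 2310.5, 2635 and 2604 in TRF+H2O2+TRF arrays. All 4 of its log2 fold changes were below 0, from -0.15 to -0.03, and all 4 intervals included 0. Across the 64 genes, the values of the 4 comparisons ran from -0.55 for cdt-1 in TRF against control to 0.37 for cye-1 in the same comparison.

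Among the 4 groups, the F test on the brightest probe sets gave 1 member an unadjusted p under 0.05, against 2.73% of all probe sets. This was mix-1 (adjusted p = 1.00, limma). Group means of mix-1 were 1145 ± 73 in control, 999 ± 123 in H2O2, 1310 ± 135 in TRF and 1140 ± 193 in TRF+H2O2+TRF arrays (SD, n = 5, 5, 4 and 4). The H2O2 mean was lowest and the TRF mean highest, with control and TRF+H2O2+TRF nearly equal between them. The next smallest p belonged to psf-1 and capg-1. The share of a member's log2 variance that lay between groups had a median of 12.8%, beside 11.9% over all probe sets. This share is not corrected for the number of groups, so a share of this size can arise without any group difference.

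The interaction asks whether peroxide had a different effect with TRF. It carries the same limit, since the TRF schedules may differ in length and cannot be told apart from peroxide. On the brightest probe sets, no member had an unadjusted p under 0.05, against 1.14% of all probe sets, and 24 members were higher and 40 lower. The smallest p was that of orc-4 at 0.39 ± 0.20 (95% interval -0.01 to 0.80), followed by rfc-2 at 0.31 ± 0.18 and pri-1 at 0.33 ± 0.21. The 95% intervals of 58 genes lay within a 2-fold difference, and 40 within 1.5-fold.

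The genes varied more from array to array within a group than between groups, and they did so together. In each group 1 array held the highest value of many members: control replicate 5 for 37 of 64, H2O2 replicate 5 for 28, TRF replicate 3 for 41 and TRF+H2O2+TRF replicate 3 for 42. Over all probe sets the same arrays were highest in 26.5%, 20.2%, 28.9% and 30.3%. In control replicate 5, 57 of 64 members were above their own mean over the 18 arrays, with an average log2 deviation of 0.27. H2O2 replicate 4 was the reverse, with 5 of 64 above and an average of -0.20.

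Licensing genes stood at both ends of this spread: cdc-6, orc-2, orc-3 and cdt-1 were among the widest, and mcm-5, orc-5 and mcm-7 among the steadiest, with an SD within groups of 0.13 to 0.15 on the log2 scale. Signals of cdc-6, the ATPase that recruits the helicase, were 714, 554, 682, 543 and 1387 in control arrays and 906, 605, 443, 413 and 1290 in H2O2 arrays. TRF arrays of cdc-6 had 801, 590, 1122 and 580, and TRF+H2O2+TRF arrays 570, 570, 1328 and 463. In each group 1 array stood at 1122 or above and the others at 906 or below, so the 4 group means of cdc-6, 776, 731, 773 and 733, were nearly level while single arrays spanned 3.36-fold. The origin subunit orc-2 followed the same arrays with 1103, 1085, 958 and 972 as the highest values of the groups in order, as did cye-1 with 183, 198, 195 and 150 and mcm-4 with 2884, 2452, 2441 and 2428.

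**Figure D3:**
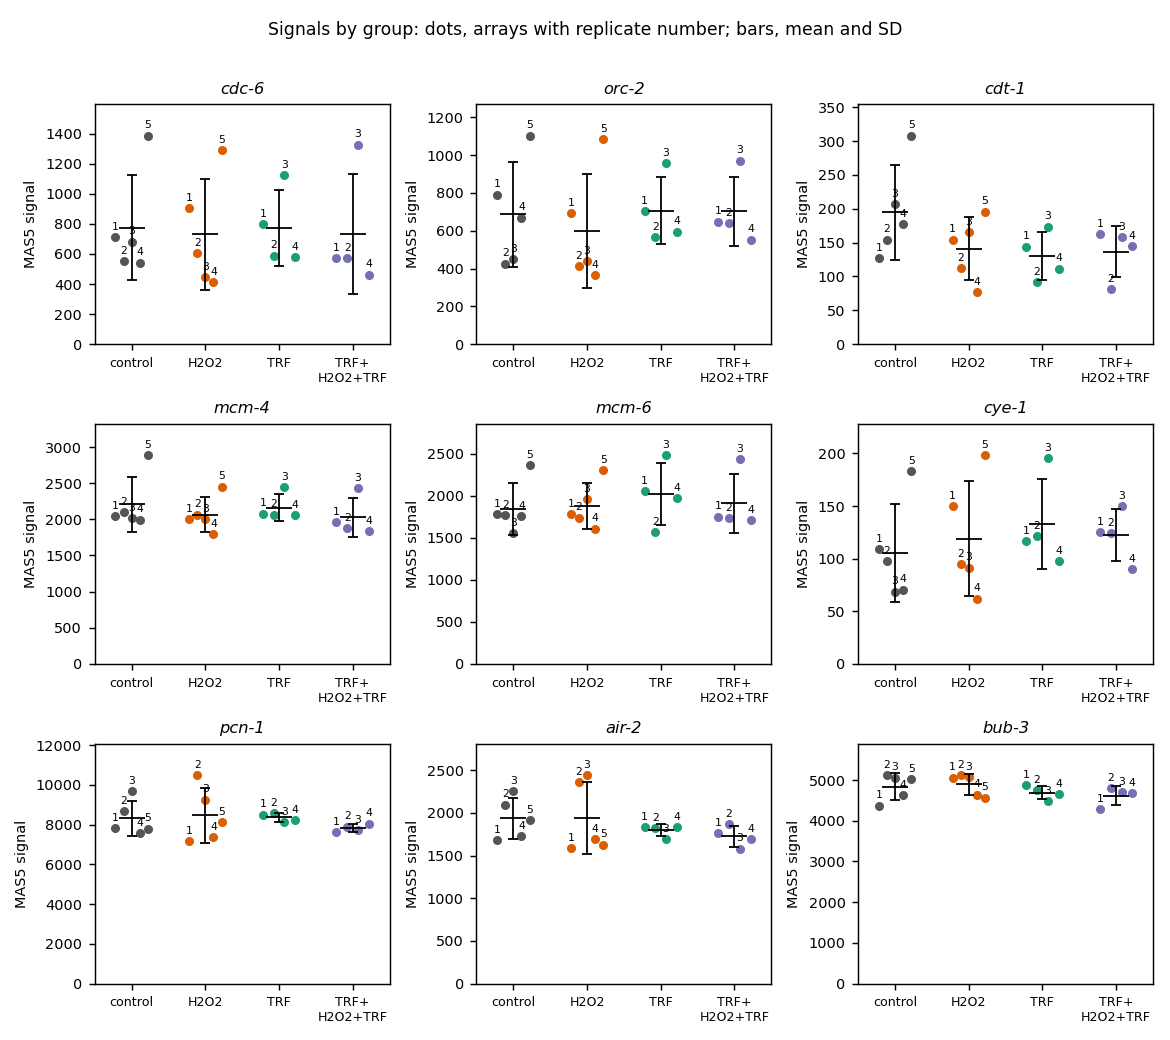
MAS5 signals (y axis, from 0) of 9 genes in the 4 groups; dots are arrays with their replicate numbers, and bars the mean and SD. In cdc-6, orc-2, mcm-4, mcm-6 and cye-1 control 5, H2O2 5, TRF 3 and TRF+H2O2+TRF 3 stand highest, whereas pcn-1 and air-2 are highest in control 3 and H2O2 2 or 3, and bub-3 is nearly flat.

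A different set had its high values elsewhere. In control arrays pcn-1 was highest in replicate 3 (9701) and in H2O2 arrays in replicate 2 (10483), and air-2, the Aurora B kinase, was highest in control replicate 3 (2253) and H2O2 replicate 3 (2439). The passenger subunit bir-1 and the loader subunits rfc-3 and rfc-4 were also high in replicates 2 or 3 of these groups. The highest of rfc-4 in H2O2 was 5412, in replicate 2, and the lowest 3229, in replicate 1. These genes were flat across TRF arrays, where air-2 ran from 1697 to 1835 and rfc-4 from 3886 to 4037.

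**Figure D4:**
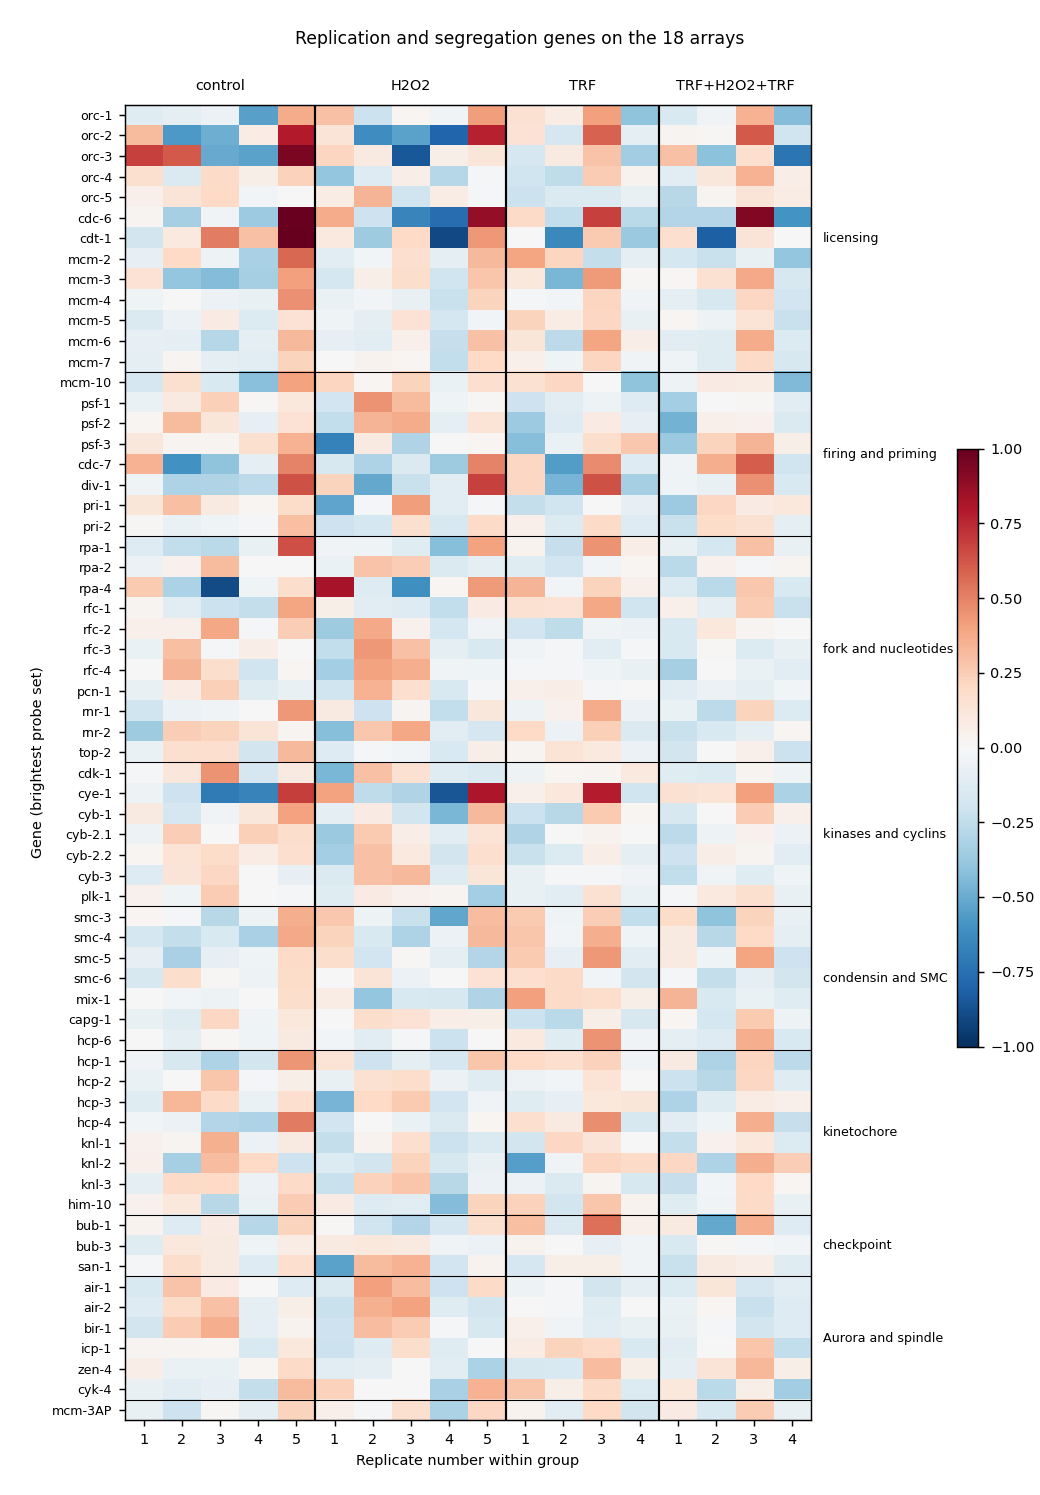
Log2 signal of each of the 64 genes (rows, by role) on each of the 18 arrays (columns, by group and replicate number) minus the gene's mean; red is higher and blue lower, with colours capped at 1. Columns control 5, TRF 3 and TRF+H2O2+TRF 3 are red over most rows, deepest in the licensing rows, and no group is uniformly red or blue.

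On the brightest probe sets, the steadiest member was bub-3, a checkpoint subunit, with an SD within groups of 0.08 on the log2 scale and a 1.19-fold span over 18 arrays. The widest was cdc-6, at 0.60, followed by cye-1 at 0.52, orc-2 and orc-3 at 0.51 each and cdt-1 at 0.48. The median over the 64 genes was 0.21, beside 0.32 over all probe sets and 0.26 over those at or above the 60th percentile of signal. Of the 64 genes 61 belong to that brighter set.

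Germline transcripts moved on the same arrays. Of the 17 germline markers 15 were above their own mean in control replicate 5, 14 in H2O2 replicate 5, 12 in TRF replicate 3 and 13 in TRF+H2O2+TRF replicate 3, and 1 was in TRF+H2O2+TRF replicate 4, where 12 of 64 members were. In H2O2 replicate 2, 13 germline markers were above their mean but only 32 of 64 members. Body wall muscle markers were below their mean in all 8 cases in control replicate 5, TRF replicate 3 and TRF+H2O2+TRF replicate 3, but above it in all 8 in H2O2 replicate 5. They were also below it in all 8 in control replicates 2 and 3, where 33 and 34 of 64 members were above theirs. The ubiquitin 3' to 5' ratio, a measure of how far labelling reached, was 9.61, 8.86, 8.49 and 8.50 in the 4 arrays with high members, within a range of 8.02 to 15.5. It was as low in H2O2 replicate 4 (8.45), where members were lowest, and in TRF replicate 4 (8.02). Sperm markers did not track the members: their average log2 deviation was -1.58 in control replicate 5, -1.84 in H2O2 replicate 5, -0.06 in TRF replicate 3 and 0.62 in TRF+H2O2+TRF replicate 3. The part of germline content, muscle content or labelling in the pattern was not tested.

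**Figure D5:**
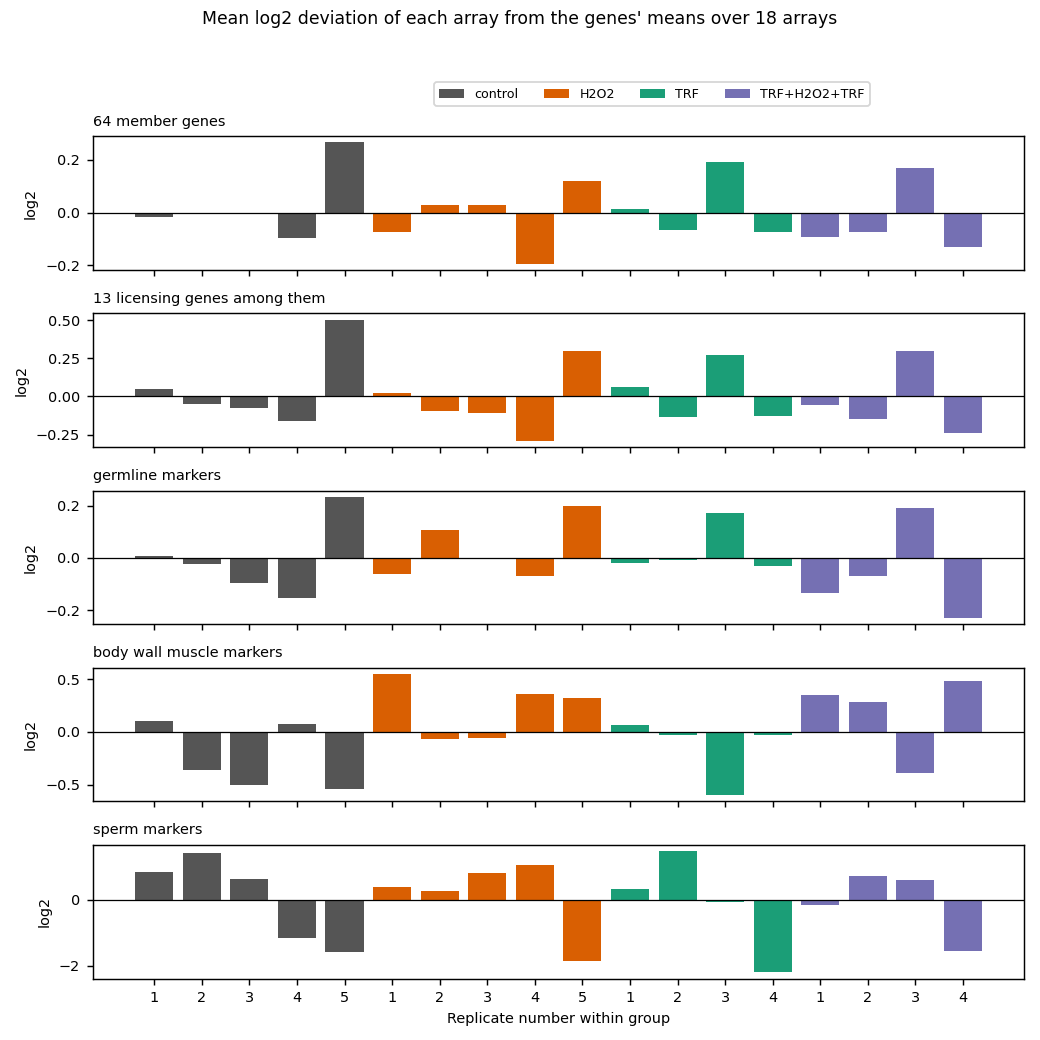
Average log2 deviation of each array (bars, coloured by group) from the genes' means over 18 arrays, for the 64 members, the 13 licensing genes and the germline, body wall muscle and sperm marker lists. Members and germline markers are highest in control 5, H2O2 5, TRF 3 and TRF+H2O2+TRF 3, and sperm markers vary far more and in another order.

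Genes of the same processes outside the rule gave the same picture. Of 23 further replication genes, 44 further segregation genes, 12 genes of the anaphase promoting complex, 13 centrosome genes, 23 G1 control genes and 35 DNA damage response genes, 0 passed adjustment in the 4 comparisons of 2 groups or in the interaction. In H2O2 against control, G1 control genes were lower in 20 of 23 (median -0.14) and DNA damage response genes in 26 of 35 (median -0.07). In these lists 3 genes had an unadjusted p under 0.05 there, where 2.34% of all probe sets did: the kinesin klp-18 (-0.84 ± 0.33), the kinetochore gene kbp-4 (-0.39 ± 0.16) and cyclin D, cyd-1 (-0.55 ± 0.24), each with adjusted p = 1.00. In TRF against control, 28 of 44 further segregation genes were higher (median 0.06). Another 3 genes of these lists had an unadjusted p under 0.05 in that comparison, where 3.5% of all probe sets did: cpar-1 at -0.27 ± 0.11, cyk-1 at 0.45 ± 0.19 and exo-3 at -0.35 ± 0.12. In the interaction kbp-4 alone had one, at 0.56 ± 0.22.

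Further probe sets above the filter, 23 for 20 genes, are annotated to the same genes with other probes. Whether each reports the same transcript was not tested. Their direction matched the brightest probe set in 15, 17, 17 and 16 of 23 cases for H2O2 against control, TRF against control, TRF+H2O2+TRF against H2O2 and TRF+H2O2+TRF against TRF. They disagreed in all 4 comparisons for capg-1, whose second probe set gave -0.15 in H2O2 against control where the first gave 0.07, and in 3 of 4 for plk-1. Across the 18 arrays the log2 signals of the paired probe sets had a median Pearson correlation of 0.60, with 4 of 23 over 0.8. The correlation was 0.10 for capg-1 and for zen-4, 0.02 for rpa-1, -0.09 for knl-1 and -0.18 for plk-1, so the values of these genes are those of 1 probe set. It was 0.37 for bub-3 and 0.36 for orc-5, and the small spread given for both is that of the brightest probe set. The other bub-3 probe set ran from 2185 to 3389. The points share arrays and groups.

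The clearest difference of any member probe set was on a dimmer one of rfc-2, chosen here after its values were seen. It read 293, 386, 290, 263 and 425 in control and 183, 136, 147, 178 and 201 in H2O2 arrays, so every H2O2 value lay below every control value. Its log2 fold change was -0.96 ± 0.19 (adjusted p = 0.972, limma), where the brighter probe set of rfc-2 gave -0.17 ± 0.14 with overlapping groups. On the dimmer one, TRF against control gave -0.74 ± 0.40, on scattered TRF signals of 260.2, 93.4, 120.3 and 483.5. TRF+H2O2+TRF against TRF gave 0.29 ± 0.46. TRF+H2O2+TRF against H2O2 gave 0.51 ± 0.23 and the interaction, which also holds the scattered TRF values, 1.25 ± 0.49. Both, and the F test, had an unadjusted p under 0.05 (limma), where 2.23%, 1.14% and 2.73% of all probe sets did. None passed adjustment on this dimmer probe set. The suffix of its identifier marks probes that can bind other transcripts, as do those of the brightest probe sets of cyb-1, cyb-2.1, cyb-2.2 and mcm-3, and which transcript it reports was not tested. A second probe set of mix-1 gave -0.44 ± 0.14 (adjusted p = 1.00, limma) in H2O2 against control, in the direction of the first. This second probe set had an unadjusted p of 0.0047 in the F test (limma) and did not pass adjustment. In TRF against control it gave -0.04 where the first gave 0.19, so the high TRF mean of mix-1 was seen on the first only.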

How the data were processed

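The deposited values are intensity values, MAS5 signals on a linear scale from the Affymetrix Expression Console, per the submitters' processing notes (versions not given in the sources used here), in 1 table of 22625 probe sets by 18 arrays. The arrays' number limits the precision. Groups and replicate numbers were taken from sample titles. The members and gene lists were chosen with earlier results of these data known. The 77 control probe sets were left out, signals were taken as log2(signal + 1), and the 13529 of 22548 probe sets at or above the 40th percentile of mean log2 signal were kept.

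Tests were made in R 4.3.3 with the package limma 3.58.1, using lmFit and eBayes with a variance trend. Each fit held the arrays of its own groups, or all 18 for the F test and the interaction, and p-values were adjusted by Benjamini-Hochberg over the kept probe sets. Symbols came from the platform's annotation. Named members are the 5 with the smallest p in each comparison of 2 groups, the 3 in the F test and the interaction, and 39 named whatever their result; others named in the text, such as orc-3, psf-2, rfc-3, smc-5, hcp-1, bub-3 and cyb-2.1, were picked after their values were seen. No sequences were used here.

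Residuals of arrays with equal numbers correlated at 0.280 to 0.681 in H2O2 and control and at 0.350 to 0.686 in TRF+H2O2+TRF and TRF, so the numbers pair these arrays. They correlated at -0.224 to 0.541 in TRF and control and at 0.022 to 0.327 in TRF+H2O2+TRF and H2O2. Unless a block is named, the log2 fold changes, standard errors and intervals are from fits without this pairing. What the numbers stand for is not stated in the labels. On simulated data with 13529 probe sets, H2O2 against control recovered 67 of 100 changes of 2-fold and 99 of 100 of 4-fold, with 4 false calls, and TRF against control 52 and 91, with 7. TRF+H2O2+TRF against H2O2 recovered 59 and 97, with 4, and TRF+H2O2+TRF against TRF 45 and 92, with 6. The F test recovered 59 and 96, with 16, and the interaction 38 and 79, with 7. The simulated noise was independent between probe sets and arrays, without pairs, unlike these arrays, so recovery in the real data may differ.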

Additional observations from a re-analysis of the deposited data

Results flagged for a closer look

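The 44 member genes named by rule, 16 of them by their smallest p, were tested in the 4 groups of 4 or 5 arrays. Of the 176 pairs of gene and group, 11 had 1 array far from the others by Dixon's test, and chance flags about 9 (about 1 in 20). Of these, 5 stood in control replicate 5, each the highest of its group: mcm-4 at 2884, div-1, a subunit of DNA polymerase alpha, at 870, rpa-1 at 3571, smc-4 at 1809 and mix-1 at 1272. Another 3 stood in TRF replicate 3, with mcm-4 high at 2441, plk-1 high at 4691 and air-2 low at 1697. In TRF+H2O2+TRF arrays, mcm-6 was high in replicate 3 at 2438, mix-1 high in replicate 1 at 1426 and cdt-1 low in replicate 2 at 81.6. No H2O2 array was flagged. The cause was not tested.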

How the results depend on the processing

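Across 141 combinations of setting and comparison, 0 had a member past the adjusted threshold. For all probe sets, TRF against control went from 1 past the threshold to 2 with median centring and 0 by the methods' t-test, and to 1 to 2 with single arrays left out (2 without TRF replicate 2). TRF+H2O2+TRF against TRF went from 0 to 1 with the replicate block, and the F test stayed at 0 or reached 1 with single arrays left out (1 without TRF+H2O2+TRF replicate 4). With the replicate block, members at an unadjusted p under 0.05 went from 0 to 4 in H2O2 against control (9.51% of all probe sets in the blocked fit), from 0 to 4 in TRF+H2O2+TRF against TRF (6.46%), from 4 to 5 in TRF against control (6.64%), from 0 to 2 in TRF+H2O2+TRF against H2O2 (4.35%), from 0 to 2 in the interaction (2.26%) and from 1 to 2 in the F test (7.34%), and it changed no adjusted call of a member. The methods' t-test at their threshold gave 2, 6, 2 and 1 members in H2O2 against control, TRF against control, TRF+H2O2+TRF against H2O2 and TRF+H2O2+TRF against TRF, beside 2.96%, 4.15%, 2.71% and 1.86% of all probe sets, and 0 after Benjamini-Hochberg adjustment. The median log2 fold change of the members ran from -0.11 to -0.00108 in H2O2 against control and from -0.11 to 0.03 in TRF against control, with -0.11 in both under median centring and 0.03 in the latter without the arrays numbered 5. It ran from -0.09 to 0.02 in TRF+H2O2+TRF against H2O2 and from -0.13 to -0.01 in TRF+H2O2+TRF against TRF. The interaction's median went from -0.02 to 0.07 under median centring. The cause was not tested.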
